A study of Mus musculus with 3 samples.

Results

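MicroRNA-22 (miR-22) is a single hairpin precursor that is cut into a 5p and a 3p strand, and both were followed here in visceral white fat. The members are the rows of the deposited table named miR-22-3p and miR-22-5p, which are 2 of 1251 mature miRNAs listed. The hairpin was selected on the mean log2 value over the 3 mice, which is highest for miR-22-3p, so that level is given as a description with no test. The samples are epididymal fat of 3 C57BL/6J mice, numbered 1, 3 and 9. The animals were 5 to 6 weeks old at the start and spent 11 weeks on a high-fat diet that held 6.75% EPA (eicosapentaenoic acid, a fish-oil fatty acid of the omega-3 class; the basis of the percentage is not stated), with 45% of energy as fat, 20% as protein and 35% as carbohydrate. They were fasted for 4 h before the tissue was frozen. All 3 share this diet, and no sample on another diet was analysed here, so no value measures an effect of EPA. Nothing in the labels beyond the titles and a statement of 3 samples per group says that these are separate animals, so p-values cover the spread among these samples alone, and part of it may be technical.

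A miRNA guides an Argonaute protein to messenger RNAs that pair with its seed, bases 2 to 8, and lowers their translation or stability. Of a hairpin's strands, one is usually kept in Argonaute as the guide and the other is mostly degraded as the passenger. miR-22-3p is the usual guide of its hairpin and is known from heart and skeletal muscle, where it represses the deacetylases Sirt1 and Hdac4. In cultured mesenchymal stem cells it has been described as a brake on adipocyte formation that acts through the deacetylase HDAC6.

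The sequences of both strands are shown first because they decide which reads can be assigned to the hairpin. They come from RefSeq on GRCm38.p6, the assembly of mm10, and are written 5′ to 3′ with the seed in capitals.
miR-22-3p: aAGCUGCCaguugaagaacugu
miR-22-5p: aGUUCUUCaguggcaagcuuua
Both strands are 22 bases long and start with A. Of the 165 tested miRNAs with a RefSeq sequence (194 were tested), 26.1% start with A and 49.7% with U. The GC content is 45.5% for the 3p strand and 40.9% for the 5p strand, beside a median of 47.8% over the same 165. The seeds differ, so the strands match different sites: the 3p seed pairs with GGCAGCU and the 5p seed with GAAGAAC. No other mature miRNA in the RefSeq table has either seed. The miRNAs miR-6935-3p and miR-7092-3p share bases 2 to 7 of the 5p strand, and neither had a row to compare.

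The hairpin itself is 95 bases long and lies on the plus strand at chr11:75463716-75463810. It is shown with the strands in capitals, 5p first, to make their pairing and the loop between them visible.
Mir22: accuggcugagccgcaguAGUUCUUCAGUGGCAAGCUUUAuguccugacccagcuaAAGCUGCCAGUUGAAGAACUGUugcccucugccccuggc
In the minimum free energy structure predicted by RNAfold, at -41.9 kcal/mol, 19 base pairs join the 5p strand to the 3p strand across a loop region of 16 bases. The first 4 bases of each strand are paired in that structure. The 5p strand covers positions 75463734 to 75463755 and the 3p strand 75463772 to 75463793. In the GENCODE M21 annotation the whole hairpin is exonic. It falls in exon 2 of both transcripts of the non-coding host gene Mir22hg, and in exon 2 of a transcript without a coding sequence from the overlapping protein-coding gene Tlcd2. The nearest other hairpin on the chromosome, Mir3971, is 87.6 kb away, so Mir22 stands alone and not in a cluster.

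The closest relative by sequence is miR-3966, from plus-strand positions 97423493 to 97423513 of chromosome 10, shown because its reads could be confused with those of miR-22-3p. Capitals mark the bases at which it differs.
miR-3966: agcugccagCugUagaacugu
Aligned over 21 bases, it lacks the first base of miR-22-3p and carries 2 substitutions, U11C and A14U, counted from 1 at the 5′ end of miR-22-3p. Its own seed is GCUGCCA, shifted by 1 base. miR-3966 stood at the floor of 3.32 in all 3 mice, the lowest value of the table, so no signal above the floor was assigned to it. How reads close to both sequences were assigned is not stated.

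Values in the table are log2 normalized counts. The sorted columns are close across the mice: 85 of the top 100 ranks, and 121 of the 336 ranks above the floor, hold the same value in all 3 within 1e-06. The largest difference at any of those 336 ranks is 0.34 log2 units, and it is 0.04 over ranks 122 to 131, where miR-22-5p lies. For both strands a difference between mice is therefore mostly a difference of rank. The depth of each library is unknown after normalization. Of the 1251 rows, 287 stood above the floor in all 3 mice, and tests used the 194 with a mean of at least 100 on the linear scale, taken as 2 to the power of the log2 value minus the floor of 10. The labelled tissue was checked against lists of cell-type miRNAs. All 8 miRNAs rich in adipose tissue were above the floor, though none is restricted to adipocytes. So were both endothelial and all 4 stromal ones, and 5 of 7 leukocyte miRNAs were above it in all mice. Both forms of the hepatocyte miR-122, 6 of 7 testis miRNAs and 2 of 4 neuronal ones stood at the floor in every mouse. Only 363 of all 1251 rows left the floor in any mouse, so these counts at the floor say little about the tissue. Lists of other cell types also had members above the floor in all mice: 2 of 7 striated muscle, 4 of 8 epithelial and 3 of 4 erythroid miRNAs.

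miR-22-3p stood at 17.77 log2 units in mouse 1 and at 18.67 in both mouse 3 and mouse 9. It was the most abundant row in mice 3 and 9, and the second-placed row, rank 2, in mouse 1. The mean was 18.37 ± 0.52 (SD, n = 3). On the linear scale this is 223648 in mouse 1 against 418274 in the others, a 1.87-fold difference, in units of normalized counts. Its share of the summed linear value was 9.30% in mouse 1 and 17.4% in mice 3 and 9. The size of that gap is set by the table: 18.67 is the value at rank 1 in every mouse and 17.77 the value at rank 2. In mouse 1 rank 1 went to miR-26a-5p, and in mice 3 and 9 rank 2 went to miR-10b-5p. In whole tissue, fewer cells that make a miRNA and less of it per cell cannot be told apart.

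The margins over the next rows are given as a description, since miR-22-3p was selected on this mean and its place above them follows from that. miR-26a-5p, which promotes a brown-like state in human adipocytes, was 0.90 log2 units above miR-22-3p in mouse 1 and 1.09 below it in mice 3 and 9. The mean difference was 0.43 ± 1.15 in favour of miR-22-3p. Against miR-10b-5p, a miRNA of the HoxD cluster, miR-22-3p was higher by 0.87, 0.90 and 0.90 in mice 1, 3 and 9. Against its HoxB relative miR-10a-5p it was higher by 0.19, 1.77 and 1.47. The adipogenic miR-143-3p lay 0.57, 1.47 and 1.77 below miR-22-3p, and let-7c-5p, a let-7 miRNA that restrains growth, 1.06, 2.17 and 1.96 below. The narrowest of these margins was that over miR-10a-5p in mouse 1. These are levels of different sequences, which small RNA libraries capture unequally.

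**Figure D1:**
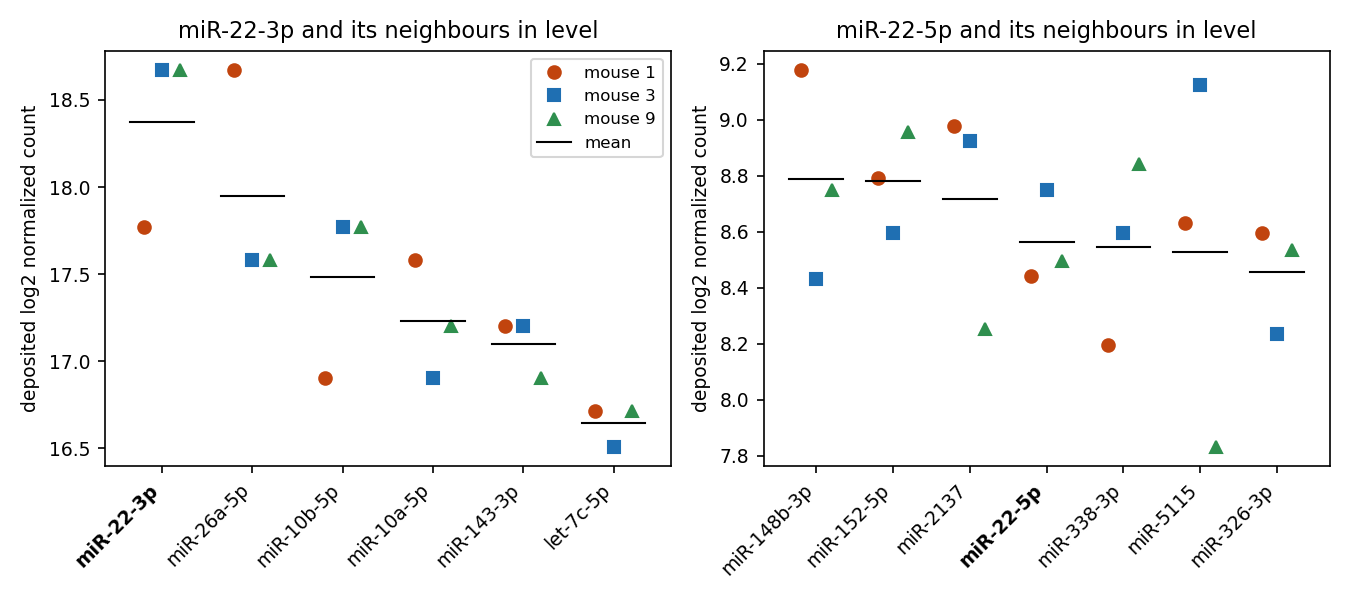
Deposited log2 normalized counts (vertical axis, not starting at 0) of miR-22-3p and the 5 next most abundant miRNAs (left) and of miR-22-5p and the 3 miRNAs on either side of it in mean level (right). Symbols are the mice and bars the means; miR-22-3p is at 18.67 in mice 3 and 9 and at 17.77 in mouse 1, where miR-26a-5p is higher, and miR-22-5p lies between 8.44 and 8.75.

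miR-22-5p, the passenger strand, was measured at 8.44 log2 units in mouse 1, 8.75 in mouse 3 and 8.50 in mouse 9. All 3 values are far above the floor and close to each other. The mean was 8.56 ± 0.16 (SD, n = 3), or 370.0 ± 44.2 linear normalized counts, and the strand held 0.0154% ± 0.00184 of the summed value. It ranked 124 by mean, with rank 131 in mouse 1 (level with miR-501-3p), 122 in mouse 3 and 130 in mouse 9. The rows just above were miR-148b-3p, miR-152-5p and miR-2137, by 0.22 ± 0.53, 0.22 ± 0.33 and 0.15 ± 0.39 log2 units. Those just below were miR-338-3p, miR-5115 and miR-326-3p, by 0.02 ± 0.32, 0.03 ± 0.56 and 0.11 ± 0.36. None of the 6 was on the same side of miR-22-5p in all 3 mice, so its exact rank lies within the spread.

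The 3p strand exceeded the 5p strand by 9.33 log2 units in mouse 1, 9.92 in mouse 3 and 10.18 in mouse 9. The mean was 9.81 ± 0.44 (SD, n = 3). In linear terms there were 661, 995 and 1191 3p counts for each 5p count, and the 5p strand made up 0.151%, 0.100% and 0.0839% of the hairpin's total in mice 1, 3 and 9. The 3p value was the same in mice 3 and 9, so their ratios differ through the 5p strand alone. The lower 3p value of mouse 1 is the step from rank 1 to rank 2, whose size is set by the table. The strands are also different sequences, which small RNA libraries capture unequally, so these ratios need not be those of the molecules. Because the choice of the hairpin rests on the 3p level, the ratio was not tested against 0. The ratio barely depends on the floor, since both strands lie well above it: with a constant of 1 or 40 in place of 10 the mean was 9.84 or 9.70.

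The ratio was set beside those of other hairpins as a description only, since it contains the 3p level that the choice made as high as possible. Of 129 hairpins with both strands listed and a stronger strand of at least 100 on average, 62 had 3p higher and 67 had 5p higher. miR-22 was at place 10 by size of the ratio. In 62 of the 129 neither strand touched the floor in any mouse. Among these miR-22 was at place 4, and the median size was 4.19. Above it came miR-10a with 11.44 in favour of 5p, miR-143 with 11.06 in favour of 3p and miR-125a with 9.96 in favour of 5p. Below it came miR-27b with 8.84 and miR-25 with 8.63, both in favour of 3p, and miR-486 with 8.32 in favour of 5p. The SD of the ratio between mice, 0.44 for miR-22, was the 23rd largest of those 62, beside a median of 0.35. That SD depends on the spacing of values at the ranks held by the strands, so its place is a description too.

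**Figure D2:**
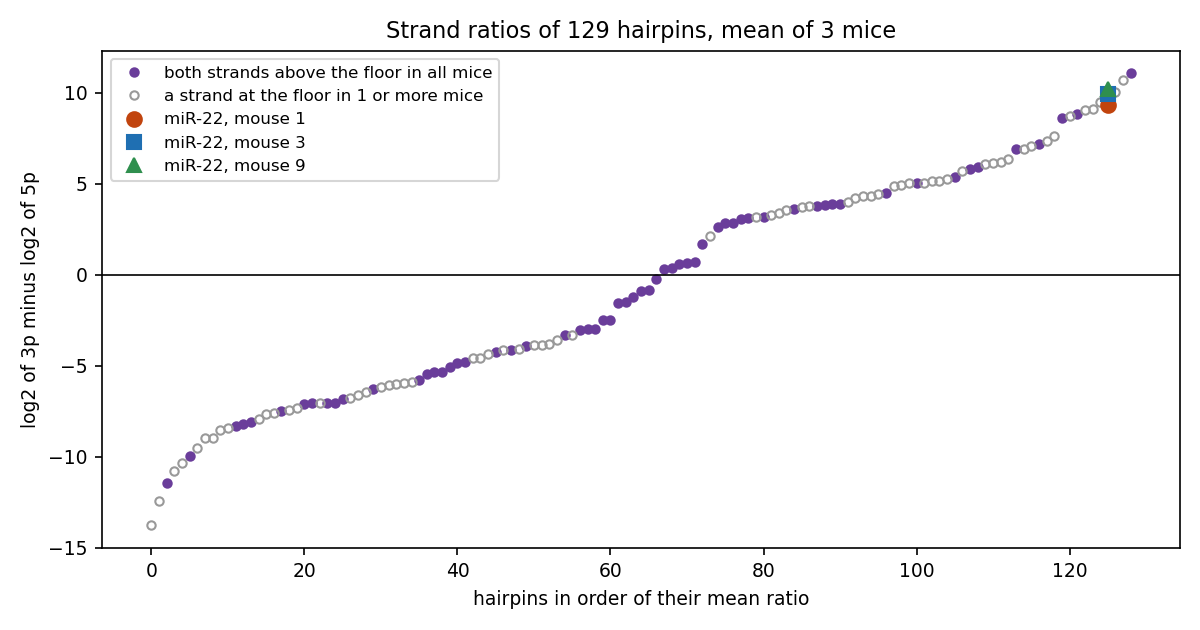
Mean log2 value of the 3p strand minus that of the 5p strand (vertical axis) for 129 hairpins in order of that mean (horizontal axis); filled points have both strands above the floor in all mice, open points do not, and the large symbols are the 3 mice for miR-22. The 3 miR-22 values, 9.33, 9.92 and 10.18, lie near the upper end of the order.

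The weaker strand of miR-22 stood high in the order of all weaker strands, which is given as a description only. The hairpin was chosen for the level of its stronger strand, and the order makes no allowance for that. Among the 129 weaker strands, 47 were at the floor in all 3 mice and the median was 3.95 log2 units, while miR-22-5p at 8.56 held place 10. It also stood above the stronger strand of 36 of the 129 hairpins, whose stronger strands had a median of 10.13. The weaker strands of the hairpins nearest in ratio were lower: 5.79 for miR-10a, 6.04 for miR-143, 5.42 for miR-125a, 6.23 for miR-27b, 4.11 for miR-25 and 6.81 for miR-486. Of these 7 hairpins miR-22 thus had the most abundant weaker strand, together with the most abundant stronger one, which is the value it was chosen for. Since the others were picked for a similar ratio, the place of the weaker strand among them follows largely from that of the stronger strand. It is not a separate result.

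The spread of miR-22-5p between mice was independent of the choice and was tested. That of miR-22-3p is a description, because the choice keeps this row near rank 1, where the values are nearly fixed by the table. The SD of miR-22-3p, 0.52 log2 units, was exceeded by 26 of the 194 tested miRNAs, whose median SD was 0.22. Its 10 nearest neighbours in level had a median SD of 0.29, and 2 of them exceeded it. The SD of miR-22-5p, 0.16, was exceeded by 125 of the 194, and by 14 of its 20 nearest neighbours in level, whose median was 0.19. limma's variance test, one-sided and with a robust prior that follows the level, gave an adjusted p of 0.986 for miR-22-5p (unadjusted 0.648). It called 2 of 194 miRNAs (1.03%), miR-133a-3p with an SD of 2.47 and miR-133b-3p with an SD of 3.32, at an adjusted p of 0.00998 each, and miR-22-5p was not among them. That count was 0 with any mouse left out, or with a prior that is not robust or has no trend. A p above the threshold with 3 mice does not show that the level of miR-22-5p is constant.

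**Figure D3:**
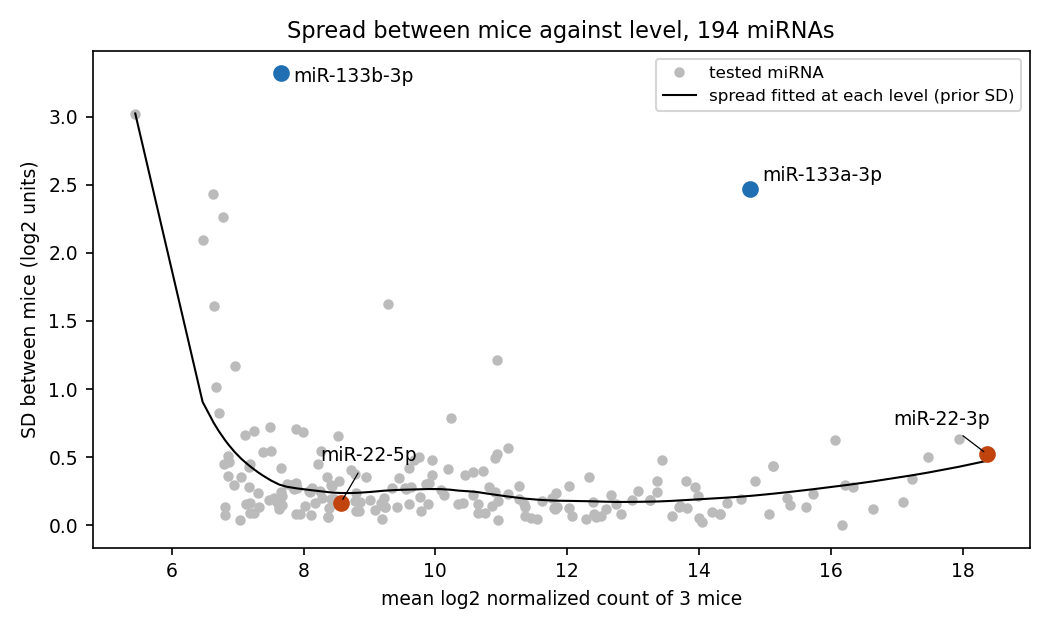
SD between the 3 mice (vertical axis, log2 units) against mean log2 normalized count (horizontal axis) for 194 miRNAs, with the prior SD fitted by limma at each level as a line. miR-22-3p (SD 0.52) lies just above the line at the far right and miR-22-5p (SD 0.16) below it, while miR-133a-3p and miR-133b-3p lie far above.

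In log2 units the differences between mice were larger for the 3p strand than for the 5p strand in both comparisons with mouse 1. From mouse 1 to mouse 3 miR-22-3p was higher by 0.90 and miR-22-5p by 0.31, and from mouse 1 to mouse 9 by 0.90 and 0.05. Between mice 3 and 9 the 3p strand was equal and the 5p strand was higher by 0.25 in mouse 3. The sizes are set by the spacing of values at the ranks held. miR-22-3p went only from rank 2 in mouse 1 to rank 1 in mice 3 and 9, and miR-22-5p from 131 to 122 and 130. These sizes therefore do not show that the 3p strand varies more than the 5p strand. Against the tested miRNAs, 8.76% differed between mice 1 and 3 by at least as much as miR-22-3p, and 44.8% by at least as much as miR-22-5p. Both strands were lowest in mouse 1, as were 53 of the 194 tested miRNAs (27.3%), which share the same libraries and normalization.

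The miRNAs most like each strand were found by the distance between log2 values centred on each miRNA's own mean, over 3 mice only. For miR-22-3p they were miR-10b-5p at a distance of 0.03 log2 units, the neuron-rich miR-128-3p at 0.04, miR-195a-5p of the miR-15 family at 0.05, miR-149-5p at 0.07 and miR-29b-3p, a repressor of collagens, at 0.16. All 5 were low in mouse 1: miR-128-3p, for example, had 7.64, 8.60 and 8.56 in mice 1, 3 and 9. For miR-22-5p they were miR-15a-5p at 0.01, miR-17-5p of the miR-17 to miR-92a cluster at 0.04, miR-671-3p at 0.06, let-7f-5p at 0.07 and miR-486-3p at 0.08. These were highest in mouse 3, as with miR-15a-5p at 10.23, 10.53 and 10.29. With 3 mice the likeness describes these libraries only.

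**Figure D4:**
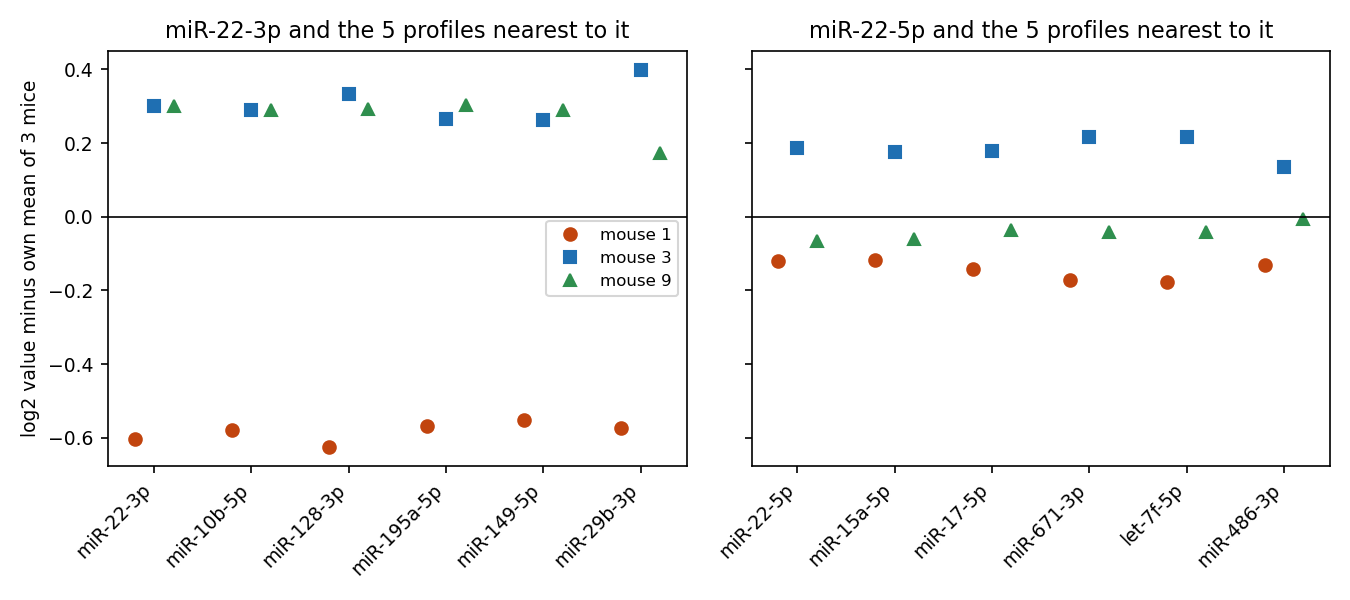
Log2 value in each mouse minus the miRNA's own mean (vertical axis) for miR-22-3p (left) and miR-22-5p (right), each with the 5 tested miRNAs of the most similar profile; symbols are the mice. The left-hand group is low in mouse 1, between -0.63 and -0.55, and the right-hand group is highest in mouse 3, with smaller deviations.

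Of the 7 striated muscle miRNAs, miR-133a-3p and miR-133b-3p, which passed the variance test, were low in mouse 1 together with miR-22-3p. miR-133a-3p had 11.94 log2 units in mouse 1, 16.38 in mouse 3 and 16.02 in mouse 9, and miR-133b-3p had 3.83, 9.49 and 9.65. Mouse 1 was lowest for both, as it was for miR-22-3p. The summed linear value of the 7 muscle miRNAs was 3912 in mouse 1, 85898 in mouse 3 and 67096 in mouse 9, or 0.163%, 3.57% and 2.79% of the total. miR-133a-3p made up 3908, 85150 and 66274 of these sums. Of the other defining markers, miR-208a-3p and miR-499-5p were at the floor in every mouse. The values of miR-1a-3p were 3.32, 5.53 and 3.44, near or at the floor, and miR-206-3p and miR-208b-3p left the floor in 1 mouse each. The part of muscle in the level of miR-22-3p was not tested.

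In the other cell lists 0 tested members passed the variance test, beside 1.03% of all 194 tested, so 0 is unremarkable in lists this short. The hepatocyte and neuronal lists had 0 tested members. Not being called does not mean a small spread. The median SD was 2.09 log2 units for the 5 epithelial miRNAs tested, 0.40 for the 8 adipose-rich and 0.39 for the 2 erythroid ones. It was 0.27 for the 2 endothelial, 0.22 for the 5 leukocyte, 0.18 for the 4 stromal and 0.15 for the 1 testis miRNA tested, beside 0.22 over all tested. Sums of the lists are given as values. The 4 erythroid miRNAs summed to 2.39% of the total in mouse 1, 1.51% in mouse 3 and 1.38% in mouse 9, so mouse 1 was the highest there, led by miR-486-5p with 15.63, 14.95 and 14.81. The 8 epithelial miRNAs summed to 0.0886%, 0.157% and 0.0381%, with mouse 9 lowest. The 7 leukocyte miRNAs summed to 0.451%, 0.433% and 0.480%. The sums were 0.618%, 0.884% and 0.653% for the endothelial pair and 1.38%, 1.29% and 1.20% for the 4 stromal miRNAs. No part of these in the values of miR-22 was tested.

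Among miRNAs described as acting on adipocyte formation, miR-22-3p was listed with the inhibitors. The description given above is from cultured mesenchymal stem cells, and an effect in this fat was not measured. The weight of miR-22-3p in the inhibitor list follows largely from its selection as the row of the highest mean. The 13 inhibitors had a median of 10.94 log2 units and the 13 promoters 13.70, beside 9.71 over all 194 tested. The list medians include members at the floor or too low to be tested, whereas 9.71 covers tested rows only. Above the floor in each mouse were 11 inhibitors, all but miR-155-5p and miR-448-3p, and 12 promoters. The inhibitors summed to 12.2%, 20.3% and 20.2% of the total in mice 1, 3 and 9, of which miR-22-3p alone gave 9.30%, 17.4% and 17.4%. The next inhibitors were miR-27b-3p, which represses Pparg, at 15.07 ± 0.08, miR-145a-5p at 14.20 ± 0.10 and miR-27a-3p at 12.43 ± 0.06. The promoters summed to 16.6%, 18.8% and 14.8%, and miR-143-3p had the highest mean among them. In the variance test 0 of the 10 inhibitors tested and 0 of the 12 promoters tested were called, against 1.03% of all tested. At that share 0 calls are unremarkable in lists this short and say nothing about them. The 10 inhibitors include miR-22-3p, whose spread is a description. The median SD was 0.18 for the tested inhibitors, 0.19 for the tested promoters and 0.22 for all tested.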

How the data were processed

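Per the labels' protocols, total RNA was extracted from frozen fat and made into Illumina small RNA libraries. The values are log2 normalized counts deposited by the authors for 1251 mature miRNAs in 3 mice. Per the series' design text, the authors used the Gunaratne pipeline, placed some 13.8 M reads of each sample on mm10, scaled to usable reads and added 40 counts. The lowest value is log2 of 10, so 10 was taken as the floor. No source used here names the aligner or the annotation of miRNAs. The nearly equal sorted columns resemble quantile normalization, which no source states. Library depth was not recoverable, so no counting interval is given.

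Spread between mice was tested with limma 3.58.1 in R 4.3.3: residual variance (2 degrees of freedom) against a robust, trended prior (4.55 degrees of freedom), with Benjamini-Hochberg adjustment over 194 miRNAs and a threshold of 0.05. On simulated data with 194 miRNAs all given the same noise except 10 made variable, it recovered 10 of 10 with 0 false calls, and the prior that is not robust recovered 0 of 10. The spread given to those 10 was far above the SD of most tested miRNAs. The simulated columns also lacked the near-equal ranks of the real ones. The simulation therefore does not show what either prior finds at a smaller spread, such as that of miR-22. Levels and ratios were described by mean and SD. Sequences and positions are from RefSeq (GRCm38.p6) and GENCODE M21; 1001 of 1251 names matched a RefSeq sequence. RNAfold 2.7.2 gave the hairpin structure, and Python 3.11.15, numpy 2.4.6, pandas 2.3.3 and matplotlib 3.10.9 were used.

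The members, lists and tests were chosen with earlier results of these data known. The rule for named miRNAs takes the members, the 5 others highest in mean, 3 on each side of miR-22-5p, the 5 nearest profiles per strand, 3 hairpins on each side in strand ratio among those with both strands above the floor, seed relatives, miRNAs called in the variance test and up to 4 leading list members; miR-3966, miR-501-3p and the floor-level list members were added after their values were seen. Alternatives were a constant of 1 or 40, median-ratio scaling, no filter or a stricter one (mean of at least 1000), other priors, 2 other ways to sum shares and leaving out each mouse.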

Additional observations from a re-analysis of the deposited data

How the results depend on the processing

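The levels of both strands, the share of miR-22-3p and the strand ratio moved by less than 1 SD under every alternative run. For leaving out a mouse this was bound to hold, because dropping 1 of 3 values cannot move a mean by 1 SD. Those runs are therefore given as values only. Leaving out each mouse gave 18.22 to 18.67 log2 units for miR-22-3p, 8.47 to 8.62 for miR-22-5p, 9.63 to 10.05 for the strand ratio and 13.3% to 17.4% for the share. Without mouse 1 the SD of miR-22-3p is 0, since mice 3 and 9 hold the same value, so its spread rests on mouse 1. Adjusted p from limma's variance test stayed above the threshold for miR-22-5p, from 0.491 to 0.986. A filter at a mean of 1000 leaves out miR-22-5p. The count of 2 miRNAs called became 0 with the prior that is not robust (7 with an unadjusted p below 0.05), 0 with a prior without trend (12) and 0 with each mouse left out (2 to 4). The cause was not tested. At a mean of at least 1000 the count was again 2, with miR-182-5p in place of miR-133b-3p. No paired analysis was possible because there is 1 group. Unknown depth limits what can be said of rows near the floor; neither strand of miR-22 is near it.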
